A study of Drosophila melanogaster with 12 samples.

Results

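Heat shock protein genes were followed in second (T2) pupal legs of 2 strains of *Drosophila melanogaster*, in RNA-Seq and in ATAC-Seq. The set holds 10 genes, chosen by name, of 17592 gene names found in every RNA-Seq library. They are the small heat shock genes *Hsp22*, *Hsp23*, *Hsp26*, *Hsp27*, *Hsp67Ba* and *Hsp67Bc*, the inducible genes *Hsp68* and *Hsp83*, and the cognates *Hsc70-3* and *Hsc70-4*. All 10 were found in the libraries, in 9 entries of the first one.

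The strains were eworo (ebony[4],white ocelli[1], rough[1]), which has a large naked valley, the trichome-free patch of the femur, and Oregon R (OreR), which has a small one. Legs were taken from pupae aged 20 to 28 h, counted from puparium formation, and no heat shock treatment is described for either strain. Each strain had 3 RNA-Seq libraries made from pooled legs and 3 ATAC-Seq samples, whose peaks were given as 1 list per strain. The strains may also differ at loci other than those in their names, and an effect of any one allele and of the strain background cannot be told apart.

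Heat shock proteins are chaperones, which bind unfolded proteins and keep them from aggregating. The small heat shock proteins hold unfolded proteins without using ATP, while the Hsp70 and Hsp90 proteins refold or mature their clients in cycles driven by ATP. In *Drosophila* the small genes at cytological position 67B answer both to heat, through the heat shock factor Hsf, and to the moulting hormone ecdysone, and several are switched on in development without any stress.

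Expression was given as FPKM, the fragments of a gene per kilobase of transcript, scaled to the mapped fragments of the library, so that levels of different genes can be set side by side. The libraries summed to between 694318 FPKM, in OreR replicate 3, and 1070015 FPKM, in OreR replicate 2, and the member entries took between 0.722% and 1.34% of that sum. All 6 markers of leg epidermis lay above 1 FPKM in every library. Summed markers of fat body ran from 234 to 542 FPKM in eworo and, in OreR, from 313 to 419 FPKM, and 4 of the 5 lay above 1 FPKM in all libraries. Summed markers of muscle ran from 118 to 472 FPKM in eworo and, in OreR, from 161 to 439 FPKM, with 6 of the 8 above 1 FPKM in all libraries. Much of this range was the marker *Tm2*, at 5.52 FPKM in eworo replicate 1 and 6.82 FPKM in OreR replicate 1. In the other libraries *Tm2* had 188 to 288 FPKM. Sums of neuron and haemocyte markers overlapped between strains as well. The sum of the 3 markers of trachea did not, at 50.5 to 58.5 FPKM in eworo and 61.2 to 72.2 FPKM in OreR. By itself only *btl* was without overlap, while *trh* and *Gasp* overlapped. Over the 4848 entries compared below, 23.2% were without overlap. The part of the trachea markers in the strain differences was not tested. In bulk legs, fewer cells of a type and less RNA per cell cannot be told apart.

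Of the small heat shock genes, *Hsp23*, *Hsp27* and *Hsp26* were among the most abundant transcripts of the leg, and no strain difference of a small heat shock gene passed the test. *Hsp23* and *Hsp27*, a pair of small heat shock proteins that respond to ecdysone, were joined by Cufflinks in a single entry in all 6 libraries. That entry stood at rank 6 of the 4848 entries compared. It had 5951, 4405 and 7698 FPKM in eworo (replicates 1 to 3, as in all such lists) against 5471, 4427 and 5327 FPKM in OreR. The ranges of the strains overlapped, and the lowest library of each strain was replicate 2. The log2 difference of FPKM + 1, eworo minus OreR, was 0.22 ± 0.23 (SE, n = 3 per strain, limma adjusted p = 0.611). It was 0.02 without eworo replicate 3 and 0.42 without eworo replicate 2.

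The authors' per-strain table separates this pair. It gives *Hsp23* 3529 FPKM in eworo against 2232 FPKM in OreR, and *Hsp27* 1196 and 1169 FPKM. These are 1 value per strain with no replicates behind them in the table. The confidence limits of *Hsp23*, 2358 to 4700 FPKM in eworo against 1502 to 2962 FPKM in OreR, overlapped. The locus of *Hsp27* also holds *CR43483*, listed on the other strand at 991 FPKM in eworo against 380 FPKM in OreR. The libraries were prepared with a stranded kit, but whether the counting used strand is not given in the sources used here, so reads of *Hsp27* and *CR43483* may not be separated.

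*Hsp26*, a further ecdysone-responsive member, had 1451, 927 and 1684 FPKM in the eworo libraries. In OreR it had 1141 FPKM in replicate 1 and 544 FPKM in replicate 3 and was listed at 0 in replicate 2. A 0 beside neighbours of this size can be a failed estimate, and the authors' per-strain values were 1267 FPKM in eworo against 652 FPKM in OreR. The log2 difference was 3.95 ± 2.76 with the 0 taken as measured (limma adjusted p = 0.505) and 0.75 with it taken as missing. It was 0.74 without OreR replicate 2. Apart from that 0, the OreR value of 1141 FPKM lay above the lowest eworo library, so the strains overlapped.

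*Hsp22*, a small heat shock protein of mitochondria, shared its entry with *CG4456* (*Hsp67Bb*), which overlaps it. The entry was listed at 0 in eworo replicates 1 and 3 and had 169 FPKM in eworo replicate 2. In OreR it had 209, 146 and 129 FPKM. The authors' values, 205 FPKM in eworo against 162 FPKM in OreR, show no such loss. The log2 difference turned from -4.84 ± 2.12 (limma adjusted p = 0.346) to 0.10 when the 0 values were left out. Without eworo replicate 2, the sole eworo library above 0, it was -7.31 with a limma adjusted p of 0.00078. Its direction therefore rests on entries listed at 0.

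*Hsp67Ba* had an entry of its own above 0 in every library. It had 375, 293 and 306 FPKM in eworo against 296, 218 and 218 FPKM in OreR. The OreR maximum lay just above the eworo minimum, so the strains overlapped. The log2 difference was 0.42 ± 0.16 (limma adjusted p = 0.318).

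*Hsp67Bc*, whose protein works in autophagy, had the lowest level of the 67B members, with 82.1, 72.2 and 0 FPKM in eworo against 49.9, 45.1 and 54.0 FPKM in OreR. Its entry was joined with the gene *Fdx1* in eworo replicate 2, which put it outside the fit. The mean log2 difference was -1.46 (exact permutation test, two-sided p = 1.0) and became 0.63 with the 0 left out. Both eworo libraries above 0 lay over all 3 OreR libraries, and the authors' values were 70.6 and 44.2 FPKM.

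**Figure D1:**
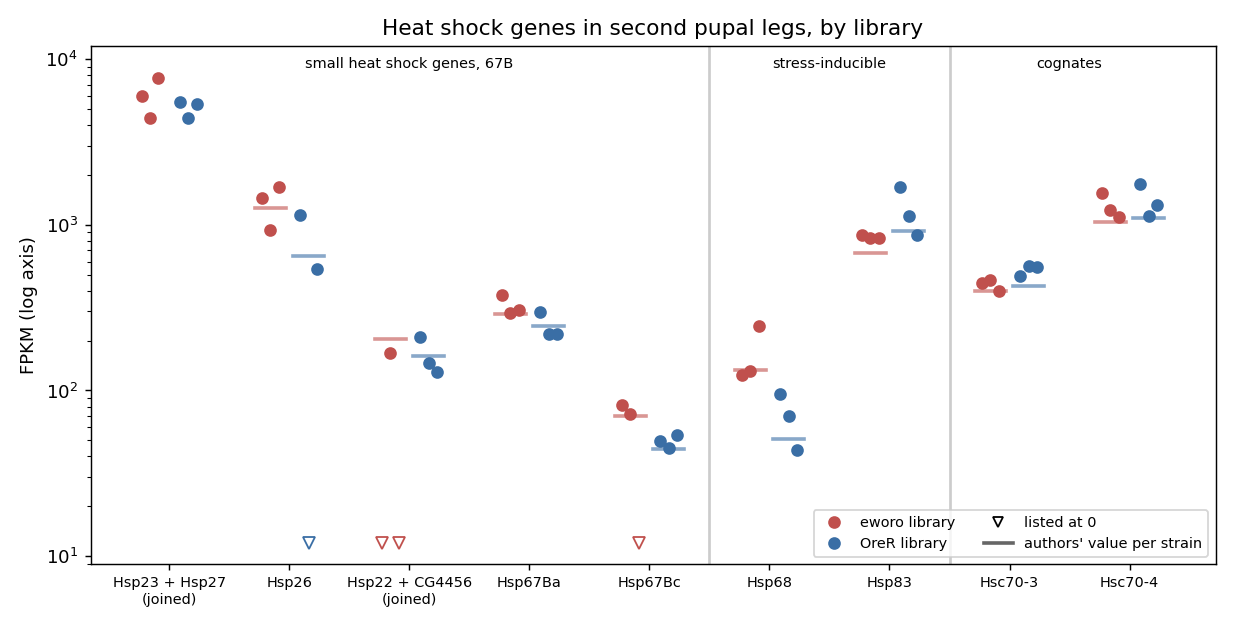
FPKM of the 10 members on a log axis, 1 point per library (3 per strain), with open triangles for entries listed at 0. Lines show the authors' value per strain, except for the joined *Hsp23* and *Hsp27*, which have none. Small heat shock genes span from about 50.5 FPKM on average for *Hsp67Bc* to 5546 FPKM for the joined *Hsp23* and *Hsp27*.

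All 6 small genes lie within 14184 bases of chromosome 3L (9371511 to 9385694, Release 6), with other genes between some of them. In the authors' per-strain values, *CG4461*, another small heat shock gene there, was near 0, at 0.189 FPKM in eworo against 0.425 FPKM in OreR, between *Hsp22* at 205 FPKM and *Hsp26* at 1267 FPKM in eworo. Neighbours in this cluster thus differed by orders of magnitude in the same legs. In the authors' table the 6 members here had ratios of eworo to OreR from 1.02 for *Hsp27* to 1.94 for *Hsp26*, and *CG4461* had a ratio of 0.445. Of all loci above 1 FPKM in that table, 54.9% had the higher value in eworo. Each ratio comes from 1 pair of strain values and is given without an error. The values themselves have the authors' confidence limits. For *Hsp26* these were 843 to 1691 FPKM in eworo and 422 to 882 FPKM in OreR, with overlap. In the libraries no 67B member passed the threshold.

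**Figure D2:**
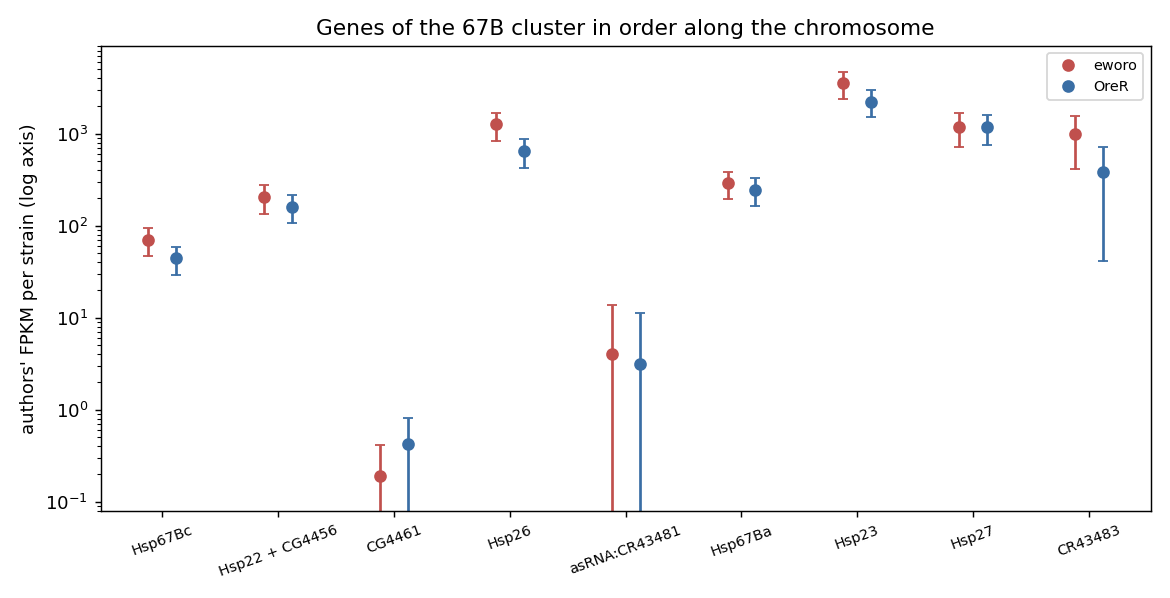
The authors' FPKM per strain, on a log axis, for genes of the 67B cluster in their order along the chromosome, with the authors' confidence limits as bars. *Hsp23* reached 3529 FPKM in eworo while *CG4461* stayed at 0.189 FPKM.

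*Hsp68*, an Hsp70 protein strongly induced by heat, was the member with the widest strain difference among those without a listed 0. It had 125, 131 and 246 FPKM in eworo against 94.7, 70.4 and 43.7 FPKM in OreR. Every eworo library lay above every OreR library, and replicate 3 was the highest of eworo and the lowest of OreR. The log2 difference was 1.25 ± 0.39 (limma adjusted p = 0.225), a ratio of 2.38. The exact permutation test gave p = 0.1, the smallest that 3 against 3 libraries allow. Over the alternatives tried the adjusted p ran from 0.151 to 0.505, with eworo higher in each. The authors' values were 133 and 51.3 FPKM. Summed fat body markers were highest in replicate 3 of both strains, at 542 FPKM in eworo, where *Hsp68* was highest, and at 419 FPKM in OreR, where it was lowest. The markers were split. *Fbp1*, *Fbp2* and *Lsp1alpha* had 95.8, 193 and 20.4 FPKM in eworo replicate 3 against 35.2, 97.6 and 4.21 FPKM in OreR replicate 3. *Lsp2* and *apolpp* had 233 and 0 FPKM in eworo replicate 3 against 262 and 19.3 FPKM in OreR replicate 3. Their part in the *Hsp68* difference was not tested.

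Relative to the cognate *Hsc70-4* in the same library, *Hsp68* stood at 8.01%, 10.7% and 22.1% in eworo and at 5.37%, 6.22% and 3.31% in OreR. The strains did not overlap in this ratio either (exact permutation p = 0.1). Relative to *Hsp83* it stood at 14.3%, 15.7% and 29.4% in eworo and at 5.59%, 6.27% and 5.06% in OreR, again without overlap (exact permutation p = 0.1). The percentages of *Hsp68* are higher in eworo with either of these abundant chaperones as the reference. Both references had log2 differences below 0 (-0.47 for *Hsp83*, -0.10 for *Hsc70-4*), which widens the gap. These ratios are therefore not a separate measure of *Hsp68*. Over *Hsc70-4*, *Hsp67Ba* did not overlap either, at 23.9% to 27.5% in eworo and 16.6% to 19.3% in OreR (exact permutation p = 0.1). The chaperone gene *DnaJ-1* did overlap in this ratio (exact permutation p = 0.2).

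*Hsp83*, the cytosolic Hsp90, matures signalling proteins such as kinases and hormone receptors. It had 873, 837 and 836 FPKM in eworo against 1694, 1122 and 863 FPKM in OreR. The eworo libraries were close together, and the OreR libraries were spread over a range that began within theirs. The log2 difference was -0.47 ± 0.25 (limma adjusted p = 0.404), and it was -0.22 without OreR replicate 1 and -0.71 without OreR replicate 3. The OreR mean was 1226 ± 425 FPKM (SD, n = 3), against 849 ± 21.2 FPKM (SD, n = 3) in eworo.

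The cognates are Hsp70 proteins made without stress. *Hsc70-3*, the Hsp70 of the endoplasmic reticulum also known as BiP, had 448, 465 and 396 FPKM in eworo against 491, 566 and 557 FPKM in OreR. Every eworo library lay below every OreR library, by a small amount. The log2 difference was -0.30 ± 0.10 (limma adjusted p = 0.270).

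*Hsc70-4*, the main cytosolic Hsp70 of unstressed cells, had 1557, 1224 and 1114 FPKM in eworo against 1763, 1132 and 1318 FPKM in OreR. The strains overlapped almost entirely. The log2 difference was -0.10 ± 0.21 (limma adjusted p = 0.807) and turned to 0.0014 without eworo replicate 3 and to 0.07 without OreR replicate 1.

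Ordered by mean FPKM over the 6 libraries, the joined *Hsp23* and *Hsp27* (5546) came first, followed by *Hsc70-4* (1351), *Hsp83* (1038), *Hsp26* (958) and *Hsc70-3* (487). Lower down came *Hsp67Ba* (284), *Hsp68* (118), the *Hsp22* entry (109) and *Hsp67Bc* (50.5). Neighbours in this order overlapped in their library ranges except after *Hsp23* and *Hsp27* and after *Hsc70-3*. Leaving out values listed at 0, the *Hsp22* entry and *Hsp67Bc* were also apart.

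In the fit, 8 entries covering 9 members were compared and none passed an adjusted p of 0.05, beside 128 of all 4848 entries, 2.64% (1.73% higher and 0.908% lower in eworo). Of the 8 entries, 3 had an unadjusted limma p under 0.05, *Hsp68* and *Hsp67Ba* higher in eworo and *Hsc70-3* lower, beside 15.3% of all entries. The libraries did not overlap in 2 of the 8, *Hsp68* and *Hsc70-3*, beside 23.2% of all entries (12.9% higher and 10.4% lower in eworo). Their median log2 difference was 0.06, beside -0.01 over all entries.

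**Figure D3:**
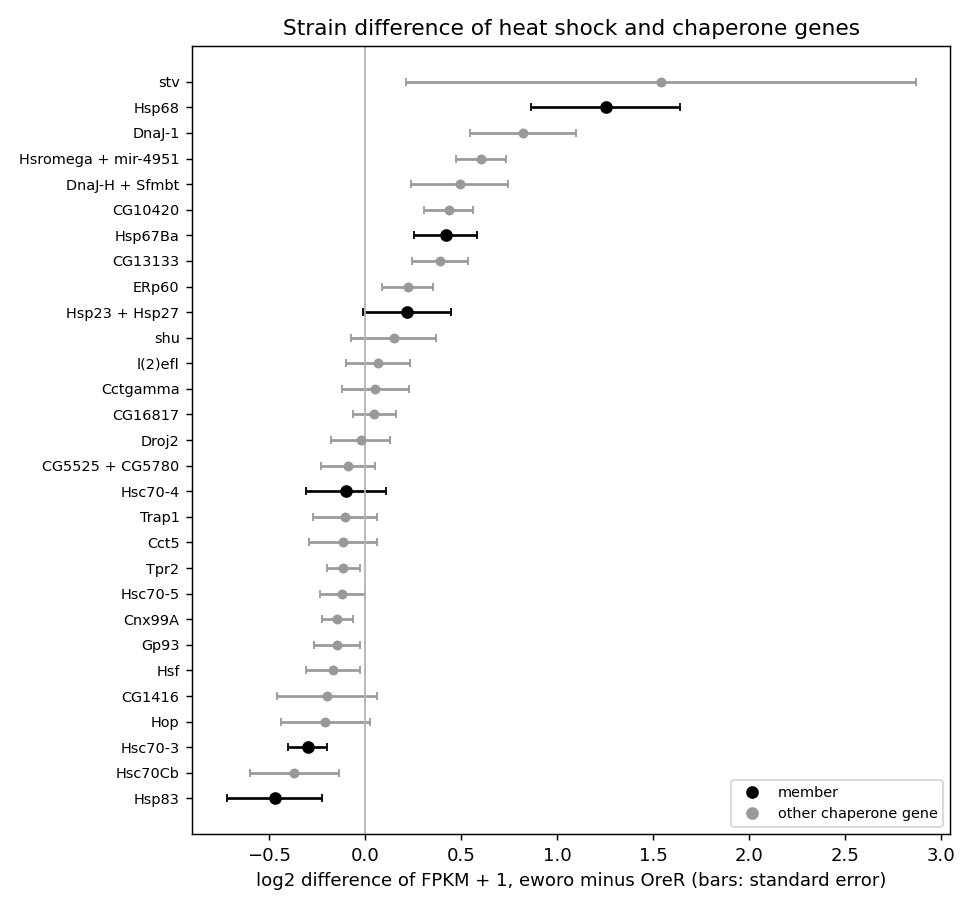
Log2 difference of FPKM + 1, eworo minus OreR, with standard errors (n = 3 libraries per strain), for members and for other chaperone genes in the fit. Entries with a value listed at 0 beside a mean above 5 FPKM are left out. *Hsp68* lies at 1.25 and *Hsp83* at -0.47, and *stv*, listed at 0 in 5 libraries, has the widest error.

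The other chaperone genes gave 25 entries in the fit from 54 gene names found, and none passed the threshold. The names include *Cct1* and *Cct2*, joined with *Pex10* and *CG12003* at a mean of 25.1 FPKM. They were matched to the chaperonins *CCT1* and *CCT2* by name alone and may be other genes. *CCT1* was also counted as *T-cp1*, at 205 FPKM, and none of these names was in the fit. Of the 25 entries, 4 had an unadjusted limma p under 0.05, all higher in eworo and all without overlap between strains. Over all entries, 15.3% had such a p and 23.2% were without overlap. These 4 were picked out after their values were seen. *DnaJ-1*, the J-domain partner that hands clients to Hsp70, had 114, 125 and 190 FPKM in eworo against 92.3, 90.4 and 58.03 FPKM in OreR. Like *Hsp68*, it was highest in eworo replicate 3 and lowest in OreR replicate 3. Its log2 difference was 0.82 ± 0.28 (limma adjusted p = 0.263).

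*Hsromega*, a long noncoding RNA of heat-shocked nuclei that is joined with *mir-4951*, had 116, 108 and 124 FPKM in eworo against 89.5, 65.6 and 74.3 FPKM in OreR. Its log2 difference was 0.61 ± 0.13 (limma adjusted p = 0.106). The remaining pair, *CG10420* (0.44 ± 0.13, adjusted p = 0.198) and *CG13133* (0.39 ± 0.15, adjusted p = 0.305 in limma), had eworo means of 10.4 and 4.16 FPKM. *Hsf*, the factor that switches on the heat shock genes, had 76.7, 87.4 and 85.6 FPKM in eworo against 77.7, 103 and 103 FPKM in OreR, with overlap.

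The inducible *Hsp70* genes could not be measured one by one. Their copies are nearly identical, so reads may be split between them in any proportion. *Hsp70Aa* had 174, 202 and 338 FPKM in eworo against 247, 72.1 and 38.4 FPKM in OreR. In eworo replicate 2 its entry also held *CG3281*. *Hsp70Ab* had 186, 206 and 295 FPKM in eworo against 207, 73.5 and 46.1 FPKM in OreR. The last of these values is of an entry joined with *GC1*, *GC2* and *aurA*. In both listed series OreR replicate 1 lay within the eworo range, and OreR replicates 2 and 3 lay below it. *Hsp70Bb*, *Hsp70Bbb* and *Hsp70Bc* shared an entry with *CG12267*, from 123 to 174 FPKM in eworo and, in OreR, from 85.9 to 271 FPKM. *Hsp70Ba*, joined with its neighbours in all libraries, had 28.8 to 62.7 FPKM in eworo against 22.3 to 55.7 FPKM in OreR. The authors' per-strain values for the 6 copies were far lower, from 0.00913 to 5.49 FPKM, so their true level is not settled by these files.

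Of the most abundant other chaperones, none in the fit passed the threshold. *Calr* and *Pdi*, of the endoplasmic reticulum, had means of 1626 and 1114 FPKM in eworo against 1372 and 1022 FPKM in OreR, and were outside the fit because each was joined with a neighbour in eworo replicate 3. The *Calr* libraries did not overlap, with 1438 to 1835 FPKM in eworo and 1302 to 1410 FPKM in OreR, and those of *Pdi* did. *ERp60*, a disulphide isomerase, had a log2 difference of 0.22 ± 0.13 and *Gp93*, the Hsp90 of the endoplasmic reticulum, of -0.15 ± 0.12. *CG16817* (0.05 ± 0.11), *Cct5* (-0.11 ± 0.18), *Droj2* (-0.02 ± 0.15) and the entry of *CG5525* (-0.09 ± 0.14) were near 0. The entries that hold *CG8258*, joined with *MrgBP*, *ana2* and *CR45202* in differing ways, had means of 301 FPKM in eworo against 299 FPKM in OreR. *CG14207*, a small heat shock gene, had 187, 1871 and 165 FPKM in eworo against 119, 147 and 141 FPKM in OreR, and the value of 1871 FPKM came from an entry joined with the ribosomal protein gene *RpS10b*. Its libraries did not overlap between strains.

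A further pattern ran across single libraries. *Hsp83*, *Hsc70-4*, *Hsc70Cb*, *Hop* and *CG1416* were all highest in OreR replicate 1, and these were picked out after their values were seen. *Hop* links Hsp70 to Hsp90, and *Hsc70Cb* is an Hsp110 exchange factor. *Hop* had 203 FPKM in OreR replicate 1, against 109 to 162 FPKM in the other libraries, and *Hsc70Cb* had 213 FPKM, against 104 to 133 FPKM. Among entries above 0 in every library, OreR replicate 1 was the highest for 2 of 6 members and for 7 of 22 chaperone entries. The share over all such entries was 8.96%. The genes picked out are among those counted, so these counts are no separate support. Eworo replicate 1 was the highest for 1 of 6 members and 7 of 22 chaperone entries, beside 28.6% of all entries. For eworo replicate 3 the counts were 2 of 6 and 6 of 22, beside 16.5%. For *Hsp68*, OreR replicate 1 was the highest of OreR and below all of eworo.

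**Figure D4:**
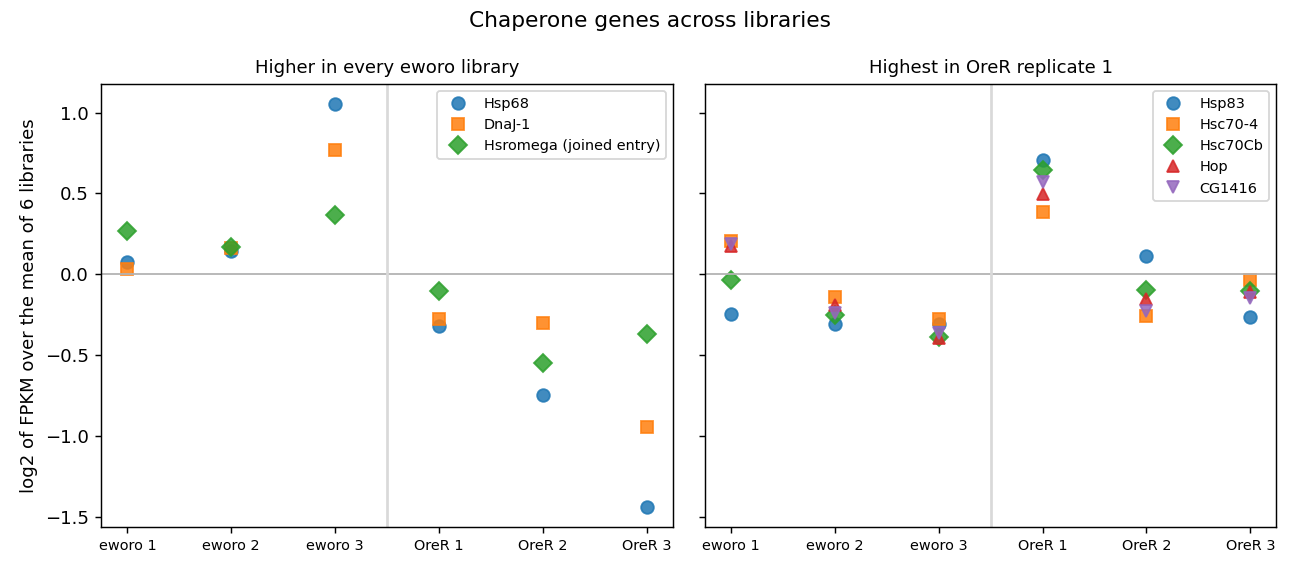
Log2 of FPKM over the mean of the 6 libraries, 1 point per gene and library. *Hsp68*, *DnaJ-1* and the *Hsromega* entry (left) lie higher in all eworo than in all OreR libraries, while *Hsp83*, *Hsc70-4*, *Hsc70Cb*, *Hop* and *CG1416* (right) peak in OreR replicate 1.

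Genes of the ecdysone response were looked at because the small heat shock genes belong to it in part. Of 25 such genes, 14 entries were in the fit, and 1 passed the threshold, beside 2.64% of all entries. *Edg91*, a cuticle gene switched by ecdysone, had 64.6, 87.1 and 37.3 FPKM in eworo against 319, 359 and 206 FPKM in OreR, a log2 difference of -2.25 ± 0.37 (limma adjusted p = 0.0489). This call was lost under several alternatives. *ImpE2*, at 5472 ± 625 FPKM in eworo against 6478 ± 677 FPKM in OreR (SD, n = 3), was at a level near that of the joined *Hsp23* and *Hsp27*, and the authors' per-strain table marks it as having too much data to be quantified. The entry of *Hr78* had means of 223 and 212 FPKM, and *ImpL1*, joined with *CG14110* in OreR replicates 2 and 3, of 178 and 93.2 FPKM. The entries that hold *usp*, a partner of the ecdysone receptor, had means of 125 and 103 FPKM and were joined with *Actn* in every library and also with *CG4325* and *moody* in OreR replicates 1 and 3. *shd*, which makes the active hormone, had 5.16 FPKM in eworo, and its OreR values of 319 and 268 FPKM (replicates 1 and 3) came from entries joined with *CG9628*, beside 6.73 FPKM in replicate 2.

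The receptor *EcR* and the entry of *Eip71CD* were added after their values were seen. *EcR* had 10.9, 40.6 and 26.7 FPKM in eworo against 42.9, 22.8 and 53.1 FPKM in OreR, with overlap. The entry of *Eip71CD* had a log2 difference of 0.97 ± 0.16 (limma adjusted p = 0.0552), in the direction opposite to *Edg91*. The median log2 difference of the 14 entries was -0.40, with 10 below 0, beside -0.01 over all entries, with 2491 of 4848 below 0. Of those below 0, *Eip75B*, *Hr4*, *Hr39*, *ImpE1* and *tai* rose above 0 under some alternative. *EcR*, *ImpE2*, *ImpE3*, *Edg91* and *Cyp18a1* stayed below 0 under all of them. Eworo replicate 1 was the lowest library for *EcR*, *Eip74EF*, *Eip75B*, *Hr4* (listed at 0 there), *Hr39*, *ImpE1* and *tai*. Over all entries above 0 in every library, it was the lowest for 24.2%. The members listed as ecdysone-responsive, *Hsp22*, *Hsp23*, *Hsp26* and *Hsp27*, overlapped between strains, with values listed at 0 for *Hsp22* and *Hsp26*.

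Open chromatin was found at or near the start of 9 of the 10 members in each strain. A start was counted where a MACS2 peak touched the 250 bases before it or the 50 after it. Over all 16820 genes with a start, 51.1% in eworo and 49.9% in OreR had such a peak, and over the 1304 genes above 100 FPKM the shares were 80.3% and 79.8%. The members' count is thus to be read beside genes of similar level. With only peaks of −log10 q of at least 10, the count was 4 in eworo and 2 in OreR, beside 29.8% and 24.0% of all genes. With an overlap of at least 100 bases it was 6 and 7, beside 40.6% and 38.5%. Peaks were called on pooled samples, so strains could be compared only by position, with no replicate error.

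The exception was *Hsp26*, one of the most abundant members, which had no peak from 1000 bases before to 1000 bases after its start in either strain. *Hsp68*, on chromosome 3R (24055080 to 24057310), had a peak over its start with a pileup of 78 tags in eworo and 80 in OreR, at 2.98 and 2.97 times the local background. Pileups are not scaled between strains, so these heights are not compared. *Hsc70-4*, on 3R (15242687 to 15246614), had a peak of 76 and 71 tags there. *Hsc70-3*, on X (11801696 to 11807117), had one of 65 and 64 tags, and *Hsp83*, on 3L (3192969 to 3197059), had peaks on both sides of its start rather than across it.

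*Hsp67Bc* and *Hsp22* are transcribed away from each other and share a peak of 78 tags in eworo and 71 in OreR. It lay over the start of *Hsp67Bc* and ended before that of *Hsp22*. A further peak, of 70 tags in each strain, lay across the start of *Hsp22*. The peak counted for *Hsp23* was 1.87 times its local background in eworo and 1.78 times in OreR. Over all peaks these were the 12.9 and 7.15 percentile of that ratio. The peak before *Hsp67Ba* ended 157 bases before its start in eworo and 234 bases before it in OreR. This peak was among the highest of all, with 86 tags in eworo and 88 in OreR, the 99.0 and 99.5 percentile of pileup. It was only 1.97 and 1.90 times its local background. Across the cluster the median local background of peaks was 32.9 in eworo and 36.2 in OreR, against 24.4 and 26.0 over all peaks, so peaks there stood on raised signal.

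**Figure D5:**
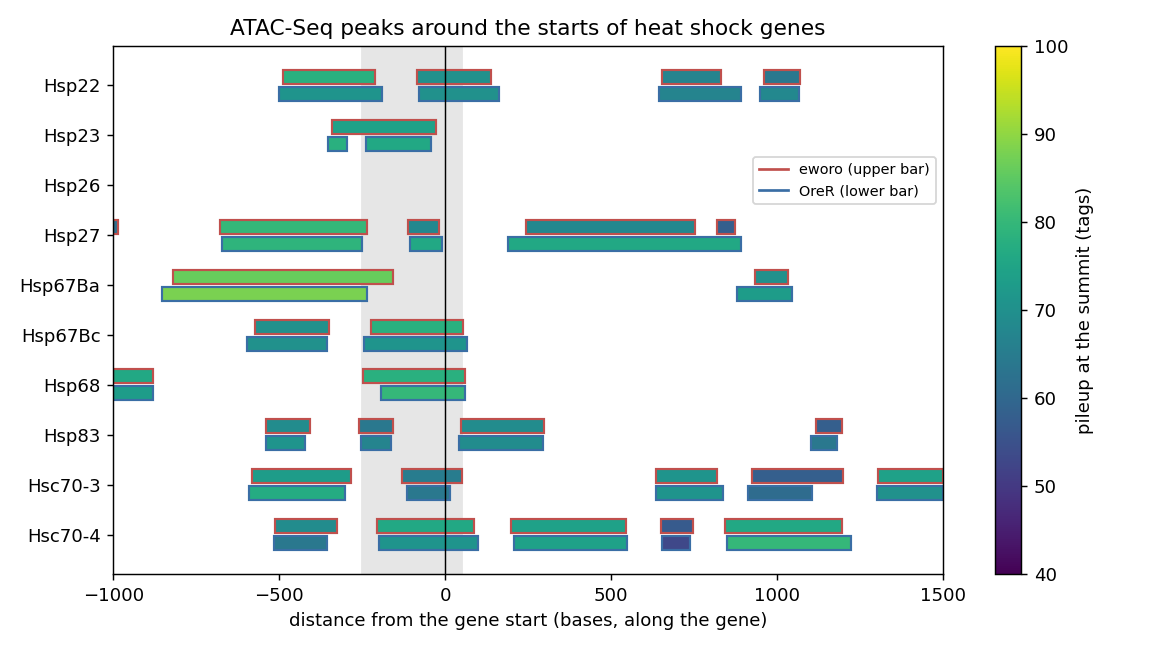
ATAC-Seq peaks of eworo (upper bars) and OreR (lower bars) by distance in bases from the start of each member, coloured by pileup in tags, with the 300-base promoter window in grey. Peaks of both strains occupy nearly the same places, and *Hsp26* has none.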

How the data were processed

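RNA-Seq of T2 legs was available as FPKM per library (3 eworo, 3 OreR). The authors aligned stranded paired-end reads with TopHat2 2.1.1 to Release 6 of the genome and computed the deposited FPKM with Cufflinks 2.2.1, which are not scaled between libraries. Their Cuffdiff table gives 1 deposited FPKM with limits per strain, and its fold changes, p-values and q-values were not used. ATAC-Seq was deposited as 1 MACS2 (2.1.1.20160309) peak list per strain, without a control, in which the authors give the signal (pileup), its ratio (fold) to the background around it, and a q-value as −log10. The depth of libraries is not given as counts in the FPKM files, so no counting interval is given.

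Cufflinks joins overlapping genes. Entries with the same name in all 6 libraries and a mean above 1 FPKM (4848) were divided by a median-of-ratios factor, and log2 of the value plus 1 entered limma 3.58.1 in R 4.3.3 (fitted with strain only, variance trend, Benjamini-Hochberg over all entries, threshold 0.05). Fold changes are on this log2(FPKM + 1) scale, which understates changes of low genes. Exact permutation tests used scipy 1.17.1. The fit was tested on simulated data. Replicates were pooled legs of 1 strain, and nothing states that they were separate cultures, so p-values measure the spread between these libraries. Same-numbered libraries correlated at -0.04, -0.11 and 0.05 in their deviations, so numbers were not used as pairs.

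Gene positions came from RefSeq (Release 6 plus ISO1 MT), which lists no strand. Strand was inferred from the order of Cuffmerge loci and checked against peaks at gene ends. The members and lists were chosen with earlier results of these data known. All 10 members were named, with up to 10 chaperone and 6 ecdysone genes, those past the threshold first and then by mean FPKM, and the *Hsp70* genes and *Hsf*. Promoter motifs were planned but not searched. Alternatives were other pseudocounts, filters, scaling, joined entries, 0 as missing, a replicate block, no variance trend, a span correction, leaving out each library and, for peaks, a stricter q-value, a wider window and an overlap of at least 100 bases.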

Additional observations from a re-analysis of the deposited data

How the results depend on the processing

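No member passed the threshold under any alternative except without eworo replicate 2, where 1 did, the *Hsp22* entry (members past the threshold by leaving out a library, 0 to 1), and likewise 1 chaperone entry (0 to 1). Of 138 recomputed member differences, 132 kept direction and side of the threshold, 1 passed it and 5 reversed. The reversed ones were *Hsp22* with listed 0 as missing (0.10), *Hsc70-4* without eworo replicate 3 (0.0014) and without OreR replicate 1 (0.0694, with a range of -0.24 to 0.0694 over left-out libraries), and *Hsp67Bc* with 0 as missing or without eworo replicate 3 (0.63 in both, with a range of -2.55 to 0.63 over left-out libraries). Past the threshold were 128 entries as reported, 71 in the fit with a filter at 5 FPKM and 178 genes where each took the value of its joined entry. The fit with a replicate block gave 27, and the numbers do not pair the samples. Leaving out a library gave 60 to 153. Of the ecdysone list, 1 entry passed, with 0 under a pseudocount of 0.1, no filter, a filter at 5 FPKM, joined values, no variance trend and a span correction, 2 with listed 0 as missing, and 0 to 2 by leaving out a library. Of the 9 members with a promoter peak, peaks with −log10 q of at least 10 left 4 in eworo and 2 in OreR, and an overlap of at least 100 bases left 6 and 7. The cause of these changes was not tested, except that fewer genes or peaks remain under a stricter filter. Entries listed at 0 and joined entries limit *Hsp22*, *Hsp26* and *Hsp67Bc*.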
